A study of Mus musculus with 2 samples.

Results

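A set of 10 genes of intracellular fat storage was examined in RNA sequencing libraries of mouse pancreatic islets: the perilipins Plin2, Plin3, Plin4 and Plin5, the lipolysis genes Pnpla2, Lipe, Abhd5 and G0s2, and the triglyceride synthesis genes Dgat1 and Dgat2. They are 10 of the 44713 genes in the count table, taken by gene symbol, and all 10 were found with at least 3 counts in each library. The set was chosen by the role of its genes with their db/db to db/m ratios in these same libraries already known, so the ratios below describe the libraries and carry no test. The db/db library came from islets of C57BL/6 mice labelled Lepr-/-. Such db/db mice have a defective leptin receptor gene and are obese and diabetic. The db/m library, labelled wild type on the same strain, was the control. Animals of that name usually carry the mutation in heterozygous form. The series describes triplicates, and 1 library per group was analysed here; the labels name neither age nor sex, nor how many animals were pooled.

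Cells store fatty acids as triglyceride in lipid droplets, which have a core of neutral lipid under a single phospholipid layer coated by perilipins. The diacylglycerol acyltransferases Dgat1 and Dgat2 make the last step of triglyceride synthesis. Adipose triglyceride lipase (Pnpla2) removes the first fatty acid and hormone-sensitive lipase (Lipe) the next, with Abhd5 as the co-activator of Pnpla2 and G0s2 as its inhibitor. In beta cells, fatty acids and lipid signals released by lipolysis are known to enhance insulin secretion, and droplets accumulate in islets exposed to excess fat.

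The libraries held 18233695 counts (db/db) and 16271129 counts (db/m). After scaling of the library sizes by the trimmed mean of M values (TMM), 1 count stood for 0.0516 CPM in db/db islets and 0.0653 CPM in db/m islets, where CPM is the count scaled to 1e6 of the scaled library size. Intervals in brackets are exact 95% intervals for counting error alone, since 1 library per group leaves no replicate error. The comparison took in 10300 genes whose mean reached 1 CPM before TMM scaling, and a call needed a difference of at least 2-fold with an interval that excludes 1. Against the label of islet cells, 26 markers of acinar cells, the enzyme-secreting cells around the islets, made up 66.7% of all db/db reads counted and 67.5% in db/m. The terms db/db islets and db/m islets therefore name the libraries by their label, and their levels are not those of islet cells alone. The summed level of 10 beta cell markers was 1558 CPM in both libraries, most of it Ins2 with 1081 CPM in db/db and 1029 CPM in db/m. In bulk RNA, a difference in the number of cells of a type cannot be told apart from a difference in RNA per cell.

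Perilipin 4 and perilipin 5 transcripts were 8.21-fold and 7.27-fold higher in db/db islets, whereas the lipase gene Lipe was 2.92-fold lower and the lipase inhibitor G0s2, with few counts, 9.28-fold lower. Of the 8 members that passed the filter, 2 were called higher (Plin4 and Plin5), 1 was called lower (Lipe) and 5 were neither. Plin5 passed the filter through the db/db library alone, with 2.37 CPM there and 0.327 CPM in db/m islets. Because the filter is set on the mean, some called genes named below also passed through 1 library. Soat2 and Slc27a3 had less than 1 CPM in db/m islets, and Creb3l3 and Adrb1 less than 1 CPM in db/db islets. Among all 10300 genes compared, 3.83% were called higher and 4.04% lower (395 and 416 genes, or 564 and 277 with libraries scaled by total counts). Because these ratios were known when the genes were chosen, nothing is read from that difference in share. G0s2 and Dgat2 fell under the filter with means of 0.758 and 0.99 unscaled CPM, and without the filter they would be called lower and higher. That rule calls 3.94% of the 18886 genes with a count higher and 4.31% lower. Over all 10 members the median log2 ratio was 0.14, against 0.02 for all compared genes, with single values from -3.21 to 3.04. The ratio was above 1 in 6 members and below 1 in 4. The plot of levels by gene shows these values with their counting intervals.

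**Figure D1:**
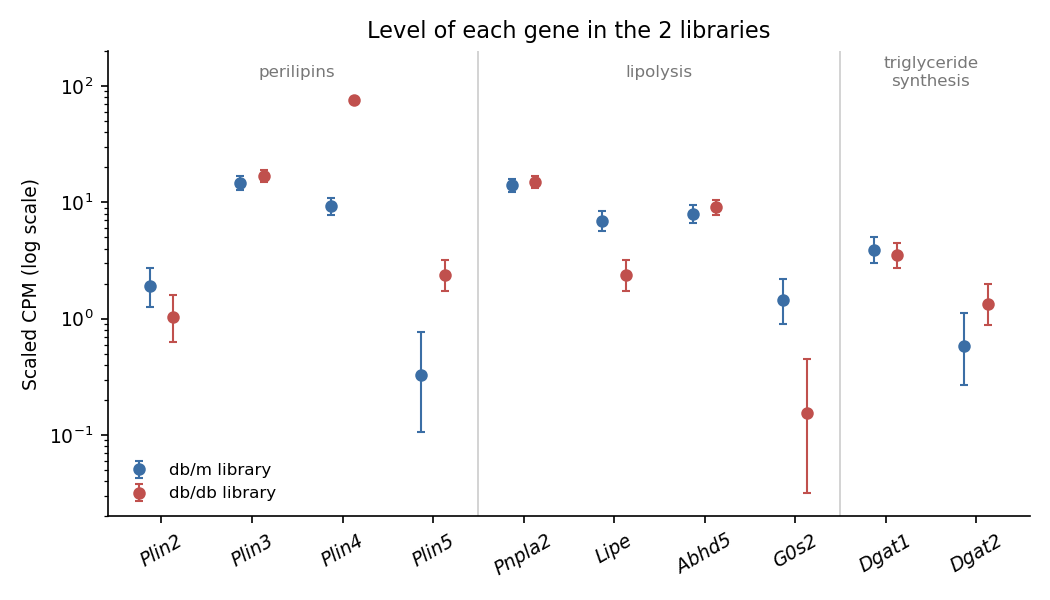
Level of each gene in db/m islets (blue) and db/db islets (red), in scaled CPM on a log axis; points are the single library of each group and bars are exact 95% Poisson counting intervals. The bars of the libraries are clearly apart for Plin4, Plin5, Lipe and G0s2 and overlap for the other genes.

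The upstream sequences of the genes with the largest differences are shown because Plin4 and Plin5 are neighbours that were higher together, while Lipe and G0s2 were lower. RefSeq start sites on GRCm38.p6 were found for 8 of the 10 members, and the 250 bases before a start were read 5′ to 3′. All genes printed lie on the minus strand. Plin4 is at chr17:56109783-56110032, Plin5 at chr17:56117549-56117798, Lipe at chr7:25395988-25396237 and G0s2 at chr1:193273189-193273438. For Plin5 and Lipe, which have 2 listed starts each, the outer one is printed. The Lipe window lies inside the annotated Lipe span, which runs to 25398486. The Plin4 and Plin5 windows reach into the annotated gene spans, which run to 56109948 and 56117606. The distance to Lrg1 and the 250 kb window below are counted from 56117606. Capitals mark matches to the searched motifs.
Plin4: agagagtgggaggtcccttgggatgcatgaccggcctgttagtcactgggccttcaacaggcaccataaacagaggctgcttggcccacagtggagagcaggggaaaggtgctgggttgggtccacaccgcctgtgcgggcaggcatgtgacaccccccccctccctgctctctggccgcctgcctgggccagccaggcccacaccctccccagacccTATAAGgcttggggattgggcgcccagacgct
Plin5: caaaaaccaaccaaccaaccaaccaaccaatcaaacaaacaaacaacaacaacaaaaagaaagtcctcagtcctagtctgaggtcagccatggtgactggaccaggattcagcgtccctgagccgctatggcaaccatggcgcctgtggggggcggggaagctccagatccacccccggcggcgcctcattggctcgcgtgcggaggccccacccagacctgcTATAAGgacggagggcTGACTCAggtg
Lipe: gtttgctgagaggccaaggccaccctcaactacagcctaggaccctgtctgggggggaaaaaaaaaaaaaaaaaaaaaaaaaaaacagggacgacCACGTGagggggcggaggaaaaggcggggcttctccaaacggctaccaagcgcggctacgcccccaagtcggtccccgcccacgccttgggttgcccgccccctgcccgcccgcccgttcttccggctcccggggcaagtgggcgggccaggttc
G0s2: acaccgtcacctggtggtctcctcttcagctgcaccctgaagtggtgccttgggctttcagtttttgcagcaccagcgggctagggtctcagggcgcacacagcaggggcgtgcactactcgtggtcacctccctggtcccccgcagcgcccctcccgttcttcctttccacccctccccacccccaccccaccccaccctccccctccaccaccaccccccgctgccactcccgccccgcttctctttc

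Both Plin4 and Plin5 carry a TATA-like TATAAG close to the start, at -32 to -27 in Plin4 and at -27 to -22 in Plin5, counted from the start site. This motif was added after the letters had been read, it was found in no other member with a sequence, and 6.65% of 32851 listed promoters hold it on either strand. Plin5 has the AP-1 motif TGANTCA at -11 to -5, which 6.75% of promoters hold. The Lipe sequence has the E-box CACGTG at -155 to -150, held by 6.02% of promoters. At the second Lipe start, not printed, the forkhead motif TGTTTAC lies at -119 to -113, as in 3.17% of promoters. The direct repeat bound by PPAR with RXR (in a strict form and in a looser one that covers it), the cyclic AMP element TGACGTCA and the heat shock element matched none of the members on either strand. They are in 0.0335%, 0.338%, 1.55% and 0.466% of promoters, and a missing match says only that these letters are not in the window. A match is a description of the letters, not a bound site.

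Plin4 coats small droplets in fat, muscle and heart. It had 1465 counts in db/db islets and 141 in db/m islets, or 75.6 CPM against 9.21 CPM. The db/db level was 8.21-fold higher (6.9 to 9.83), and 30 of the 10300 compared genes (0.291%), Plin4 included, had a ratio at least as high. Its coding sequence holds a long run of similar repeats, and the handling of reads with several matches is not stated.

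Plin5 ties droplets to mitochondria and holds back lipolysis in tissues that burn fat. It had 46 counts in db/db islets against 5 in db/m islets, or 2.37 CPM against 0.327 CPM. The ratio was 7.27 (2.9 to 23.4), a wide interval set by the 5 counts of the control library, and 33 compared genes (0.32%) had a ratio at least as high.

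Plin3 (chromosome 17, 56278962 to 56290511), a perilipin of most tissues that moves from the cytosol to new droplets, had 326 and 224 counts, or 16.8 CPM in db/db islets and 14.6 CPM in db/m islets. Its ratio was 1.15 (0.967 to 1.37), with 1 inside the interval, and 1.3 (1.09 to 1.55) with total-count scaling. Plin2 (chromosome 4, 86626910 to 86670217), the usual droplet coat of cells other than adipocytes, was sparsely counted, with 20 counts in db/db islets and 29 in db/m islets, or 1.03 CPM against 1.89 CPM. The ratio was 0.545 (0.292 to 0.997), short of the 2-fold limit, and total-count scaling gave 0.615 (0.33 to 1.13), which includes 1. The RefSeq annotation places the pseudogene Gm12551 over 5312 bases of the Plin2 gene, and how reads in that stretch were assigned is not stated.

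The mix of perilipin reads differed between the libraries. Plin4 gave 78.9% (77% to 80.7%, exact binomial interval) of the 1857 perilipin counts in db/db islets and 35.3% (30.6% to 40.2%) of the 399 in db/m islets. Plin3 gave 17.6% (15.9% to 19.4%) and 56.1% (51.1% to 61.1%). Summed perilipin counts were 3.68-fold higher in db/db islets (3.3 to 4.11), and without Plin4 and Plin5 the ratio was 1.08 (0.916 to 1.28). These are shares of reads, in which a long transcript weighs more, and transcript lengths were not available to set levels of different genes side by side.

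**Figure D2:**
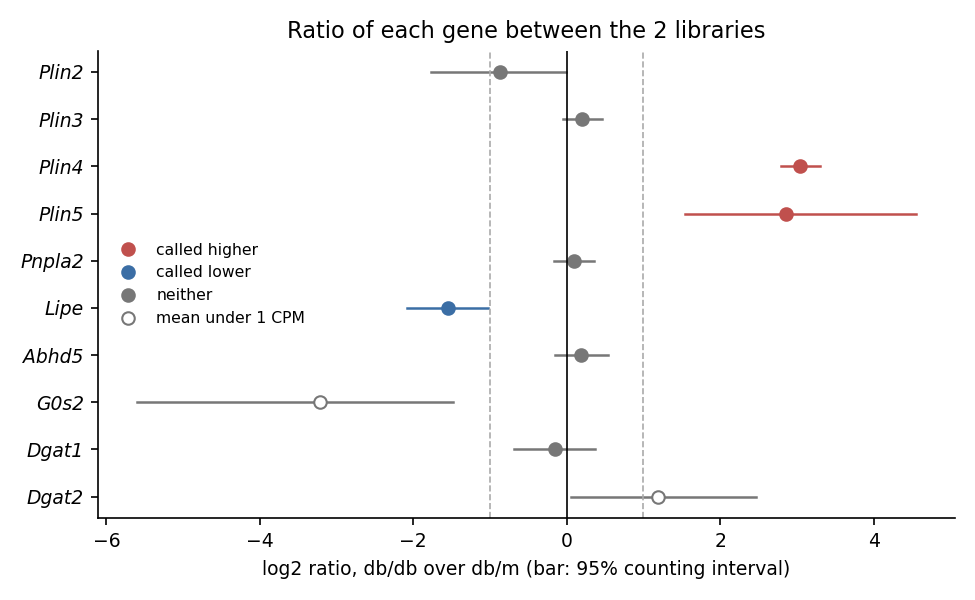
The log2 ratio of db/db over db/m for each gene, with its 95% counting interval; dashed lines mark 2-fold and open circles are genes with a mean under 1 CPM. Plin4 (3.04) and Plin5 (2.86) lie to the right, Lipe (-1.54) and G0s2 (-3.21) to the left.

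Plin4 (chromosome 17, 56100587 to 56109948 in GRCm38) and Plin5 (56111597 to 56117606) are next to each other, 1648 bases apart, on the minus strand. The genes on both sides were also higher in db/db islets. Lrg1, which encodes a secreted leucine-rich glycoprotein and ends 2071 bases upstream of the Plin5 start on the same strand, had 256 counts in db/db islets and 98 in db/m islets, a ratio of 2.06 (1.63 to 2.63). Hdgfl2, a gene on the plus strand whose annotated end overlaps the end of Plin4 by 19 bases, had 71 counts and 26 counts, a ratio of 2.16 (1.36 to 3.52).

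These 4 were the genes called higher among 15 compared genes within 250 kb of the Plin5 start, and 0 were lower. Among all compared genes the shares were 3.83% higher and 4.04% lower. The window was centred on Plin5, and Plin4 and Plin5 were chosen with their ratios known, so nothing is read from that difference in share. Yju2, with 22 and 4 counts, was under the filter and had a ratio of 4.35 (1.48 to 17.4). Sema6b, close to Lrg1 and also under the filter, had 6 and 9 counts, a ratio of 0.527 (0.154 to 1.66). The lowest ratio of the compared genes in the window was that of Sh3gl1, at 0.713 (0.575 to 0.884). Stap2, Mpnd, Ticam1 and Kdm4b also had ratios below 1, with intervals that include 1. Plin3 lies 167 kb away in the same window and stood at 1.15. Past Hdgfl2, the nearest compared gene Ubxn6 had a ratio of 1.27 (1.09 to 1.47), and past Lrg1 the nearest was Dpp9 at 1.27 (1.14 to 1.42). Over the 10086 compared genes with a position, runs of at least 4 neighbours that were all called higher occurred at 2 places, this one and the trypsinogen genes of chromosome 6. Runs of that length called lower occurred at 7 places. How strand was treated is not stated, and whether reads past a gene end were counted for its neighbour was not tested. Lrg1, Ubxn6, Dpp9, Yju2, Sema6b and the genes named for ratios below 1 were picked with the values in view. So were the window and the count of runs.

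**Figure D3:**
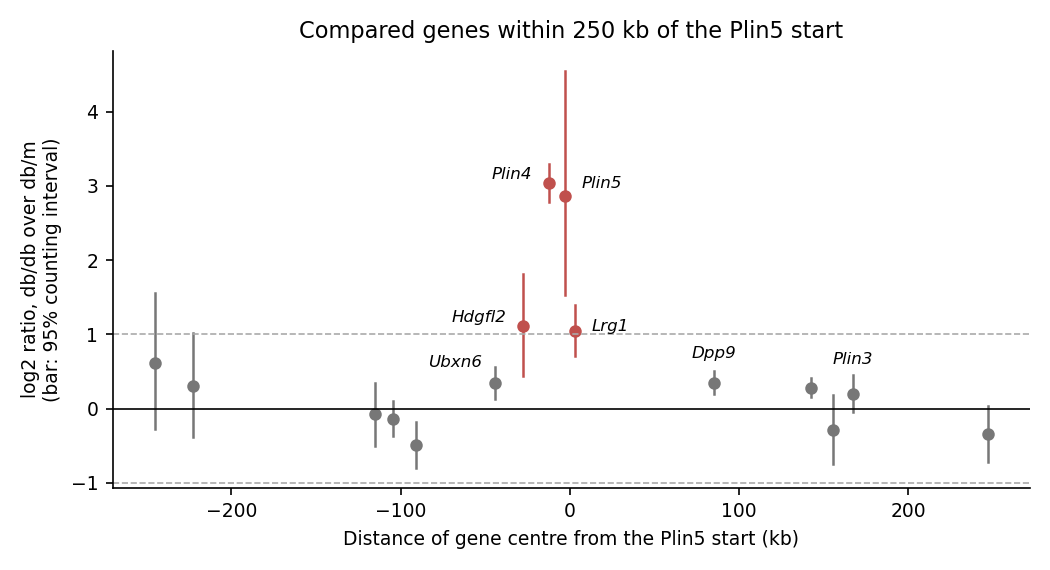
The log2 ratio of db/db over db/m, with 95% counting intervals, for the 15 compared genes within 250 kb of the Plin5 start, by the distance of the gene centre from that start in kb; dashed lines mark 2-fold. The 4 genes called higher (red) stand side by side at the centre, and Plin3 lies at 167 kb with a log2 ratio of 0.20.

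Among the lipolysis genes, the lipase Pnpla2 and its co-activator Abhd5 differed by less than 1.5-fold between the libraries. Pnpla2 (chromosome 7, 141455188 to 141460743) had 288 and 214 counts, or 14.9 CPM in db/db islets and 14 CPM in db/m islets, a ratio of 1.06 (0.888 to 1.28). Abhd5 (chromosome 9, 122351616 to 122381524) had 176 and 122 counts, or 9.08 CPM and 7.97 CPM, a ratio of 1.14 (0.9 to 1.45). Both intervals include 1. With total-count scaling the ratios were 1.2 (1.003 to 1.44) for Pnpla2 and 1.29 (1.02 to 1.64) for Abhd5, and both intervals lay just above 1.

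Lipe (chromosome 7, 25379527 to 25398486), the hormone-sensitive lipase that acts mainly on diacylglycerol and cholesterol esters, had 46 counts in db/db islets and 106 in db/m islets, or 2.37 CPM against 6.92 CPM. It was 2.92-fold lower in db/db islets (2.04 to 4.22), and 141 compared genes (1.37%) had a ratio at least as low. A long non-coding RNA, 4732471J01Rik, spans the whole Lipe gene, with 8 and 2 counts of its own. G0s2 (chromosome 1, 193272160 to 193273188), the inhibitor of Pnpla2, had 3 counts in db/db islets and 22 in db/m islets, or 0.155 CPM against 1.44 CPM. It was 9.28-fold lower (2.79 to 48.4), a difference that rests on 3 counts.

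Of the synthesis enzymes, Dgat1 (chromosome 15, 76502012 to 76512021), an enzyme of the endoplasmic reticulum, had 68 and 60 counts, or 3.51 CPM in db/db islets and 3.92 CPM in db/m islets, with a ratio of 0.896 (0.624 to 1.29). Dgat2 (chromosome 7, 99153663 to 99182713), which can also act at the droplet surface, had 26 counts in db/db islets and 9 in db/m islets, or 1.34 CPM against 0.588 CPM. Its ratio was 2.28 (1.04 to 5.54), with a lower bound close to 1.

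Counts of these genes were also set against each other within a library, which removes the scaling between libraries. For every 100 counts of Pnpla2 there were 1.04 counts of G0s2 in db/db islets and 10.3 in db/m islets, a 9.87-fold lower inhibitor to lipase ratio in db/db islets (2.9 to 52). Lipe stood at 16 and 49.5 per 100 counts of Pnpla2, 3.1-fold lower (2.07 to 4.68), while Abhd5 stood at 61.1 and 57 per 100, a ratio of 1.07 (0.793 to 1.45). Relative to Plin3, Plin4 was 7.14-fold higher (5.56 to 9.17), Plin5 6.32-fold higher (2.46 to 20.7) and Plin2 2.11-fold lower (1.12 to 4.04). Dgat2 relative to Dgat1 was 2.55-fold higher (1.05 to 6.66). Of the 10 pairs, 3 had an interval above 1, 4 below 1 and 3 included 1. These pairs use the same counts as the ratios above and are no separate support for them.

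**Figure D4:**
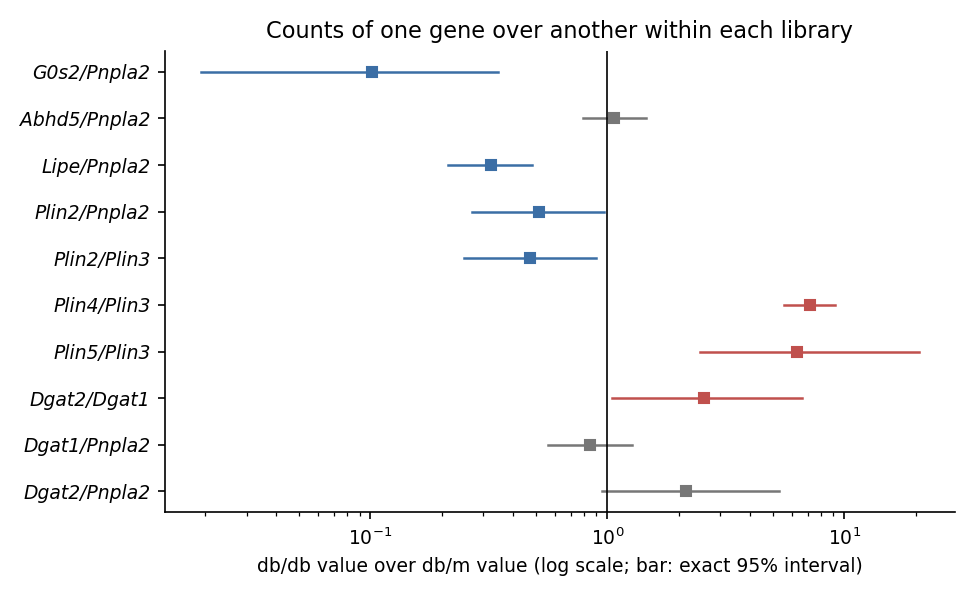
The count of the first gene over that of the second within a library, as the db/db value divided by the db/m value, on a log axis with exact conditional 95% intervals. Plin4/Plin3 (7.14) and Plin5/Plin3 (6.32) lie above 1, G0s2/Pnpla2 and Lipe/Pnpla2 below it, and Abhd5/Pnpla2 at 1.07.

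Other genes of the same pathways were taken from lists and are read beside the 3.83% called higher and 4.04% called lower among all compared genes. Of the other droplet coat and biogenesis genes, 0 of 12 compared were called in either direction, with a median log2 ratio of -0.08 and a range from -0.79 to 0.75. Bscl2, which encodes seipin and helps droplets bud from the endoplasmic reticulum, was at 24.6 CPM in db/db islets and 16.7 CPM in db/m islets, a ratio of 1.47 (1.26 to 1.72). Rab18, a small GTPase found on droplets, stood at 0.817 (0.718 to 0.93), and Pcyt1a, which makes phosphatidylcholine for the growing surface, at 0.864 (0.707 to 1.06). Of the other lipases and esterases, 0 of 10 were called, with a median of -0.19. Mgll, the monoacylglycerol lipase that completes lipolysis, was at 38.9 CPM against 55.8 CPM, a ratio of 0.697 (0.631 to 0.77). The phospholipase gene Ddhd2, known also as a brain triglyceride hydrolase, stood at 0.781 (0.695 to 0.878) and the mitochondrial phospholipase gene Pnpla8 at 0.893 (0.804 to 0.99).

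In glycerolipid and sterol ester synthesis, 1 of 15 compared genes was called higher and 0 lower, with a median log2 ratio of 0.08. The called gene was Soat2, which makes cholesterol esters for storage, with 74 counts in db/db islets and 13 in db/m islets, a ratio of 4.5 (2.48 to 8.84). Acsl4, which activates polyunsaturated fatty acids, stood at 1.69 (1.37 to 2.1), Acsl1 at 0.699 (0.623 to 0.785) and Gpam, the first acyltransferase of the pathway in mitochondria, at 1.24 (1.14 to 1.36). For fatty acid uptake and binding, 1 of 7 was higher, the transporter family gene Slc27a3 with 34 and 13 counts (2.07, 1.06 to 4.27). In that list 1 was lower, the acyl-CoA binding protein gene Dbi with 77 and 132 counts (2.17-fold lower, 1.63 to 2.91). Slc27a1 was at 0.677 (0.589 to 0.778), Vldlr at 1.23 (1.12 to 1.35) and Slc27a4 at 1.14 (0.972 to 1.35).

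Several of the 10 genes are known targets of the PPAR receptors, which sense fatty acids. In a list of 24 other PPAR-responsive genes, put together with earlier results of these libraries known, 5 of 19 compared genes were called lower in db/db islets and 0 higher, beside 4.04% and 3.83% of all compared genes, with a median log2 ratio of -0.59. Among them were Pdk4, which restrains pyruvate oxidation, with 102 counts in db/db islets and 938 in db/m islets (11.6-fold lower, 9.48 to 14.4), and Angptl4, an inhibitor of lipoprotein lipase, with 57 and 140 counts (3.11-fold lower, 2.27 to 4.31). The others were Acadl (2.52-fold), the liver transcription factor gene Creb3l3 (3.94-fold, on 9 and 28 counts) and the hormone gene Fgf21 (2.35-fold, 1.88 to 2.94). Of genes not called, Hadha stood at 0.565 and Ucp2 at 0.554. A ratio above 1 was found for 3 of the 19, the acyl-CoA thioesterase genes Acot1 (1.33, 1.11 to 1.6) and Acot2 (1.29, 1.03 to 1.62) and the thiolase gene Acaa2 (1.03, 0.883 to 1.21), which were named after their values were known.

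Of the compared receptors and regulators, 1 of 23 was called higher and 3 lower, with a median log2 ratio of 0.09. Ppargc1a, a co-activator of oxidative genes, had 217 counts in db/db islets and 81 in db/m islets, a ratio of 2.12 (1.63 to 2.77). Among those lower were Adrb1, a receptor gene whose product starts lipolysis in fat, by 2.23-fold (1.19 to 4.32), and the hypoxia factor gene Epas1 by 2.04-fold (1.49 to 2.81). Ppara stood at 1.26 (1.05 to 1.52), Ppargc1b at 0.725 (0.584 to 0.9) and Mlx at 0.797 (0.686 to 0.926).

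**Figure D5:**
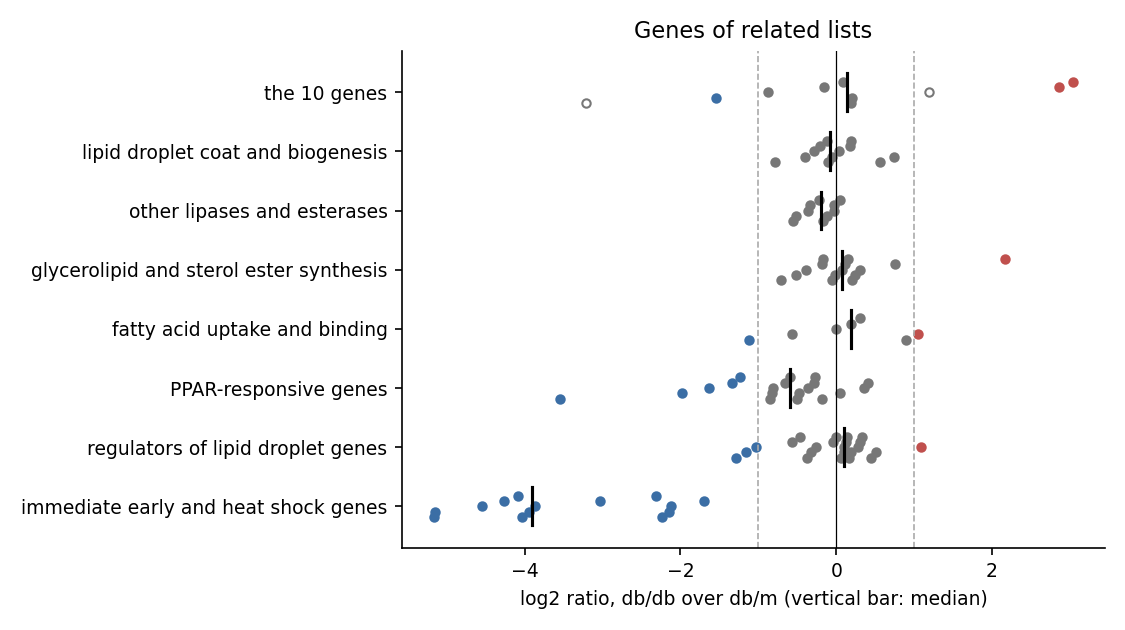
The log2 ratio of db/db over db/m for the 10 genes and for the compared genes of 7 related lists; red and blue points were called higher and lower, open points have a mean under 1 CPM, vertical bars are medians and dashed lines mark 2-fold. The medians of the 5 lists on droplets, lipases, synthesis, uptake and regulators lie between -0.19 and 0.20, that of the PPAR-responsive list at -0.59 and that of the immediate early and heat shock list at -3.90.

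Adipocytes express many of these genes strongly, and their defining markers were at or near 0. Adiponectin (Adipoq), leptin (Lep), adipsin (Cfd), resistin (Retn), Cidec, Aqp7, Adrb3 and Slc7a10, 8 of the 13 adipocyte markers, had 0 counts in both libraries. Plin1, the perilipin of adipocytes, had 2 counts in each library and Fabp4 had 5 and 7. The summed level of the list was 15.3 CPM in db/db islets and 8.75 CPM in db/m islets, of which Acvr1c, a receptor also present in islet cells, made up 14.8 CPM and 8.03 CPM. Of 8 muscle and heart markers, added after the values were seen, 4 had 0 counts in both libraries and the list had 3 counts in db/db islets and 9 in db/m islets.

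Other cell type markers did differ between the libraries. The 8 markers of alpha, delta and PP cells summed to 295 CPM in db/db islets and 65.6 CPM in db/m islets, a ratio of 4.5 (4.2 to 4.81) carried by Gcg, Sst, Ppy and Pyy. Of the 13 macrophage markers, 3 had 0 counts in both libraries and the sum was 7.64 CPM against 4.83 CPM, a ratio of 1.58 (1.19 to 2.12). Lyz2 made up 95 of 148 counts in db/db and 33 of 74 in db/m, and was called higher (2.28, 1.52 to 3.49). The other markers went both ways: Csf1r had 18 and 3 counts, Cd68 had 2 and 12, and Adgre1 had 0 and 3. Duct markers summed to 121 CPM against 181 CPM (ratio 0.668, 0.632 to 0.706), with none of 6 called, and endothelial markers to 8.57 CPM against 11.1 CPM, with Kdr and Plvap called lower. Stellate and fibroblast markers summed to 10.3 CPM against 9.53 CPM, with Acta2 called lower, and liver markers to 17 CPM against 11.1 CPM, most of it Ttr, which islet cells also express. Of the 10 beta cell markers, 6 were called lower and 0 higher, beside 4.04% and 3.83% of all compared genes. Their median log2 ratio was -1.19. Their equal sum was set by Ins2, while Iapp (307 CPM against 182 CPM) offset Ins1 (135 CPM against 285 CPM). The part of these cells in the ratios of the 10 genes was not tested.

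Genes that respond within minutes to stress also differed between the 2 libraries. All 14 compared immediate early and heat shock genes were called lower in db/db islets, beside 4.04% of all compared genes. Their median log2 ratio was -3.90 and their summed level 107 CPM against 1499 CPM. Their part in the lower values of Lipe and G0s2 was not tested.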

How the data were processed

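Ribosomal RNA was removed from total RNA of islets that had been released by collagenase and cleaned on a Histopaque gradient, per the labels' protocols. The aligner was HISAT2 2.0.4, with mm10 and GRCm38 as builds, per the submitters' processing notes. The counting program, its annotation, its strand setting and its multi-mapping rule were not stated in the sources used here. The table deposited by the authors holds whole-number counts per gene for 1 library per group, with no normalization.

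Library sizes were scaled by TMM (edgeR 4.0.16, R 4.3.3). Ratios have exact Clopper-Pearson 95% intervals on the share of a gene's reads found in db/db, and ratios within a library exact conditional intervals of the odds ratio (scipy 1.17.1, numpy 2.4.6, pandas 2.3.3, Python 3.11.15). No p-value was computed. The intervals cover counting error only and treat each read as an independent draw. PCR copies are not independent molecules, so where they are present the intervals are too narrow even for counting error. The functions were tested on simulated data. The 10 genes, 7 pathway lists and 9 marker lists were chosen with earlier results of these data known; 1 more marker list, for muscle, and 1 motif were added later. Of each list the called genes and up to 3 others with at least 10 CPM and the largest ratio in either direction are named, and some defining markers besides; 2 genes that this rule names are not reported here. Across all lists 5 genes were matched by older symbols and 2 were not found. As alternatives, libraries were scaled with DESeq2 1.42.0 size factors, with total counts or with totals that leave out acinar and hormone genes. Further ones were other filters and fold limits, and a Bonferroni interval. Figures were drawn with matplotlib 3.10.9. Positions and sequences are from RefSeq on GRCm38.p6.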

Additional observations from a re-analysis of the deposited data

How the results depend on the processing

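The calls of Plin4, Plin5 and Lipe held under all 3 other scalings and with the interval at the Bonferroni level. The 30 log2 ratios of the members under those scalings stayed within their counting intervals. At the Bonferroni level the ratio of Plin5 had an interval of 1.21 to 190. Those of the members under the filter, G0s2 (0.00081 to 1.1) and Dgat2 (0.425 to 21.8), included 1 at that level. Scaling by total counts raised every log2 ratio by 0.18, and by totals without acinar and hormone genes by 0.14. With a filter of 10 CPM, 1 member was called higher (Plin4) and 0 lower. The number called lower was 2 without a filter on low counts (with G0s2), 2 with a 1.5-fold limit (with Plin2) and 0 with a 4-fold limit. Over all genes, 745 were higher and 814 lower without the filter, 36 and 95 with 10 CPM, 889 and 914 at 1.5-fold, 78 and 76 at 4-fold, and 138 and 213 at the Bonferroni level, against 395 and 416. With total counts 564 were higher and 277 lower. The median of the uptake and binding list, 0.20, was -0.34 without the filter, a value that the scaled library sizes give to genes with equal or floored counts. No paired analysis was possible because each group has 1 library. With 5 to 46 counts in a library, as for Plin2, Plin5 and Dgat2, the depth leaves intervals several-fold wide.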
